A study of Axonopus compressus with 6 samples.

Results

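The 300 transcripts described here are assembled root features of carpetgrass (Axonopus compressus, a warm-season turf grass) whose level was well above most others and nearly the same in all 6 libraries of the study. They were chosen from the measured values themselves. A feature qualified if its mean over the libraries was at least 50 and under 250 RPKM (reads scaled by the length of the feature and by the library total) and its highest library was at most 1.15 times its lowest. Of 2460 features in that range, 402 (16.3%) qualified, and the 300 with the lowest ratio of highest to lowest were kept, out of 108674 features in the whole table. Because the rule used both groups, the likeness of their levels between aluminium-treated and control roots is what selected them and is described without a test.

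The study compared 3 aluminium libraries, from roots given 100 μM aluminium for 24 h, with 3 control libraries, from roots given 0 μM for 24 h. All 6 came from 1 accession, A58, used as seedlings with roots about 5 cm long. The labels give no aluminium salt, no pH and no statement on separate plants or cultures, so the spread between libraries may be technical and p-values measure only that spread. Library totals, worked back from the deposited values, ranged from 33576684 to 35204519 reads in aluminium libraries and from 32544238 to 33216298 reads in control libraries.

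Aluminium becomes soluble in acid soils and, as the trivalent ion, binds to cell walls and membranes of the root tip and inhibits root elongation. Grasses respond by secreting organic acids such as malate and citrate, which bind the ion, and by transporting it into vacuoles and altering the cell wall. Transcripts whose level does not follow a treatment serve as references when other transcripts are measured by quantitative PCR, and genes for actin, ubiquitin or elongation factors are often tried for that role in plants. The deposited table pairs no identifier with a gene name or function, so none of the 300 features can be matched to such a gene or to any pathway, the labelled root tissue cannot be checked against root markers, and no sequence is shown. Features are therefore called by their identifiers, which look like those of the Trinity assembler. In these, the numbers after DN and c name a component, a cluster of overlapping reads, and the number after g names 1 gene-level feature within it.

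With a mean of 50 RPKM or more, the 300 features belonged to the 2711 most abundant (2.49%) of the table. Their median level was 76.7 (25th to 75th percentile 62.1 to 106) RPKM, and 214 lay below 100 RPKM and 86 at or above it. Their share of all reads was 5.10, 5.13 and 5.15% in aluminium libraries 1, 2 and 3. In control libraries 1, 2 and 3 it was 5.16, 5.15 and 5.05%. The rule itself keeps this share nearly even. All features of the range together held from 30.41% (control library 3) to 31.09% (aluminium library 2), so an even share was not particular to the 300. In whole-root RNA, fewer cells that hold a transcript and less of it in each cell cannot be told apart.

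The steadiest of the 300 was TRINITY_DN29985_c0_g3, a feature of 1168 bases. It was at 101, 101 and 102 RPKM in aluminium libraries 1, 2 and 3, against 100.1, 102 and 101 RPKM in control libraries 1, 2 and 3. The second, TRINITY_DN34155_c0_g1 of 1375 bases, was at 84.1, 83.3 and 82.2 RPKM in aluminium libraries 1, 2 and 3, against 83.0, 82.8 and 82.4 RPKM in control libraries 1, 2 and 3. In both features the values of the groups lay among each other, and the highest library was 1.02 times the lowest. TRINITY_DN32512_c0_g1, of 1780 bases, was at 148, 147 and 146 RPKM in aluminium libraries 1, 2 and 3, against 149, 151 and 146 RPKM in control libraries 1, 2 and 3. The fourth, TRINITY_DN26201_c0_g1 of 861 bases, was at 99.9, 100.1 and 103 RPKM in aluminium libraries 1, 2 and 3, against 100.1, 101 and 102 RPKM in control libraries 1, 2 and 3. Their ratios of highest to lowest were 1.03 and 1.03, with groups that again overlapped. As means, the first of these 4 stood at 101 ± 0.988 RPKM in aluminium libraries and 101 ± 0.744 RPKM in control libraries (SD, n = 3 each), from 3842 to 4150 reads per library.

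At the top of the abundance range, TRINITY_DN38409_c2_g1 (3750 bases) was at 234, 238 and 238 RPKM in aluminium libraries 1, 2 and 3, against 257, 256 and 255 RPKM in control libraries 1, 2 and 3. Next in level was TRINITY_DN36999_c0_g1 (1090 bases), with 254, 240.2 and 256 RPKM in aluminium libraries 1, 2 and 3, against 236, 229.8 and 228 RPKM in control libraries 1, 2 and 3. In both, the groups stood apart without overlap, the first lower and the second higher in every aluminium library, by less than the ratio the rule allowed. At the bottom, TRINITY_DN38874_c3_g1 (3396 bases) was at 49.4, 50.7 and 49.4 RPKM in aluminium libraries 1, 2 and 3, against 48.7, 53.7 and 50.7 RPKM in control libraries 1, 2 and 3. The feature next above it, TRINITY_DN30594_c0_g1 (1705 bases), was at 47.7, 48.4 and 49.8 RPKM in aluminium libraries 1, 2 and 3, against 52.1, 51.8 and 53.5 RPKM in control libraries 1, 2 and 3. The first of these 2 had its lowest and its highest value in the control group, while in the second all 3 aluminium libraries lay below all 3 control libraries.

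**Figure D1:**
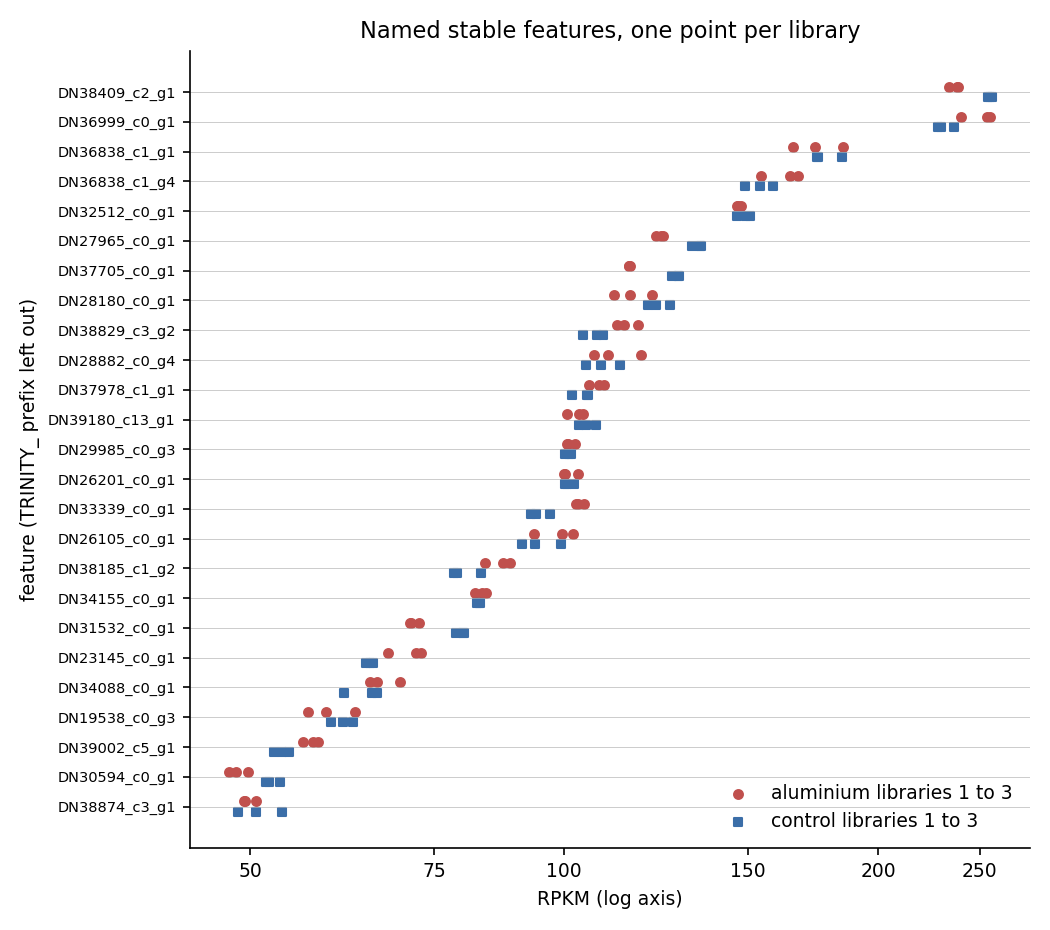
RPKM (log axis) of the stable features named in the text, 1 row per feature in order of mean level, with circles for the 3 aluminium libraries and squares for the 3 control libraries. The 6 points of each row span at most 1.13 times the lowest value, and in rows such as DN37705_c0_g1 and DN31532_c0_g1 the groups still stand apart.

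The ratio of highest to lowest ran from 1.02 to 1.13 over the 300 features, with a median of 1.101. It was at most 1.05 in 15 and at most 1.1 in 147 of them. The boundary set by the number kept did not fall in a gap. The last features kept were TRINITY_DN34088_c0_g1, TRINITY_DN28180_c0_g1 and TRINITY_DN38185_c1_g2, with ratios of 1.1313, 1.1317 and 1.1317. The first left out were TRINITY_DN31983_c0_g1, TRINITY_DN36707_c0_g1 and TRINITY_DN36227_c0_g2, with ratios of 1.1318, 1.1322 and 1.1323. Another 102 features met the 1.15 limit but were beyond the 300, and the highest ratio in the range was 5.20.

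**Figure D2:**
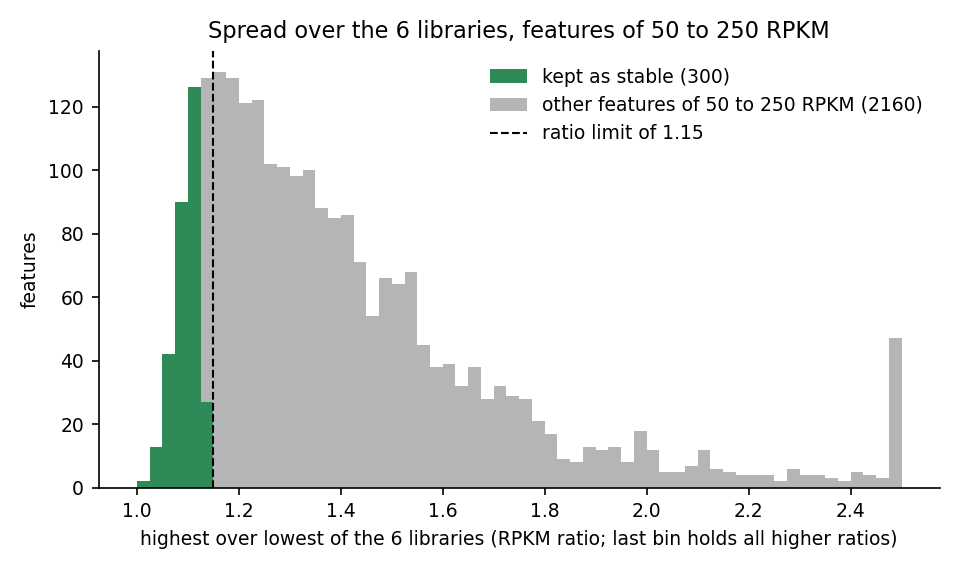
Histogram of the ratio of the highest to the lowest of the 6 libraries for the 2460 features of 50 to 250 RPKM, with the 300 kept features stacked below the 2160 others and a dashed line at 1.15. The kept features form the left edge of the distribution, whose median is 1.33.

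Steadiness within a group was common in this abundance range, and steadiness across the groups was not. Of the 2460 features, 1877 (76.3%) stayed within a ratio of 1.15 over the 3 aluminium libraries and 2251 (91.5%) over the 3 control libraries. Within each group taken alone, 1776 features met the limit, and 402 of these (22.6%) also met it over all 6 libraries. A ratio over 6 libraries can only be equal to or higher than the one over 3 of them. The median ratio in the range was 1.09 over aluminium libraries, 1.07 over control libraries and 1.33 over all 6.

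The rule was also applied to the control libraries alone, which leaves the aluminium libraries unused in the choice. It then chose 2234 features, among them 297 of the 300. In 833 of them (37.3%) the aluminium mean lay within 1.15 times the control mean in either direction, and in 308 (13.8%) it was at least 1.5 times higher or lower. By the test across all features (limma on log2(RPKM + 0.5), adjusted p under 0.05), 515 were higher and 1090 lower in aluminium libraries, 71.8% in all. That share is near the 71.0% called among all features of the range, most of which these are, and the control libraries entered both the choice and the test. Among all 50679 features tested, 35.4% were called.

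The rule was next applied to 5 libraries at a time, and the left-out library was looked at afterwards. With aluminium libraries 1, 2 and 3 left out, 471, 537 and 472 features met the limit, of which 86.0, 75.05 and 85.2% still met it with the left-out library added. With control libraries 1, 2 and 3 left out, 450, 452 and 456 features met it, and 89.6, 88.9 and 88.2% still did with that library added. Aluminium library 2 was the one that features chosen on the others most often failed to match. Its value over the mean of the other 5 had a 5th to 95th percentile range of 0.883 to 1.15, while those of the other left-out libraries lay between 0.892 and 1.11.

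The libraries did not share the extremes evenly. Among the 300 features, the highest value was in aluminium libraries 1, 2 and 3 for 35, 55 and 69 features, against 69, 50 and 22 features for control libraries 1, 2 and 3. The lowest value was in aluminium libraries 1, 2 and 3 for 55, 56 and 43 features, against 27, 26 and 93 features for control libraries 1, 2 and 3. Control library 3 was thus the lowest more often than any other library, and it also had the smallest share of reads in the 300 features. Features of 250 RPKM or more took 12.1, 13.4 and 12.1% of reads in aluminium libraries 1, 2 and 3, against 12.9, 12.4 and 14.0% in control libraries 1, 2 and 3, the highest share being that of control library 3. The part of this share in the lower values of control library 3 was not tested.

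Small differences between the groups remained within the limit. The aluminium mean was above the control mean in 153 features and below it in 147, and it lay within 5% of the control mean in 208. The ratio of the aluminium to the control mean ran from 0.901 to 1.09, with a median of 1.001. In the 2160 other features of the range this ratio had a median of 0.912 and ran from 0.277 to 3.16. The 300 were chosen around a ratio of 1 on the RPKM scale, so taking them out shapes the median of the others. Over all 2711 features of 50 RPKM or more, the median log2 change (limma) was -0.071, slightly lower in aluminium libraries.

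The features at the ends of this span show what a difference inside the limit looked like. TRINITY_DN33339_c0_g1 (2277 bases) was at 104, 103 and 103 RPKM in aluminium libraries 1, 2 and 3, against 93.9, 96.9 and 93.0 RPKM in control libraries 1, 2 and 3. TRINITY_DN23145_c0_g1 (1339 bases) was at 72.9, 72.2 and 67.8 RPKM in aluminium libraries 1, 2 and 3, against 65.1, 64.5 and 65.5 RPKM in control libraries 1, 2 and 3. Every aluminium library was above every control library in both, with ratios of the means of 1.09 and 1.09. TRINITY_DN31532_c0_g1 (2054 bases) was at 71.1, 72.6 and 71.3 RPKM in aluminium libraries 1, 2 and 3, against 79.9, 78.7 and 80.1 RPKM in control libraries 1, 2 and 3. TRINITY_DN37705_c0_g1 (2154 bases) was at 115, 115 and 116 RPKM in aluminium libraries 1, 2 and 3, against 127, 128 and 129 RPKM in control libraries 1, 2 and 3. Here every aluminium library was below every control library, with ratios of 0.901 and 0.902. The last of these was at 116 ± 0.125 RPKM in aluminium libraries and 128 ± 1.06 RPKM in control libraries (SD, n = 3 each).

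No overlap between the groups was seen in 103 of the 300 features, of which 55 were higher and 48 lower in every aluminium library. Over all features tested the groups did not overlap in 49.2% (24.7% higher and 24.5% lower in every aluminium library), and over the features of the range in 79.0%. The limma test across all features called 6 of the 300 higher and 7 lower in aluminium libraries, where 18.1% and 17.3% of all features tested were called. All 300 passed the abundance filter of that test, a minimum of 1 RPKM in 3 or more libraries, as their level required. Since the rule used the same contrast, these counts describe the features and nothing is read from them, and the calls that were made concern differences of under 1.15-fold. The count depended on the setting, with 0 called with the replicate number as a block (limma; 12 at an unadjusted p under 0.05) and 33 with limma's voom on worked-back reads (20 higher and 13 lower). With quantile normalization, 25 were higher and 3 lower in aluminium libraries. Without aluminium libraries 1, 2 and 3 it was 1, 18 and 4, and without control libraries 1, 2 and 3 it was 1, 2 and 2.

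**Figure D3:**
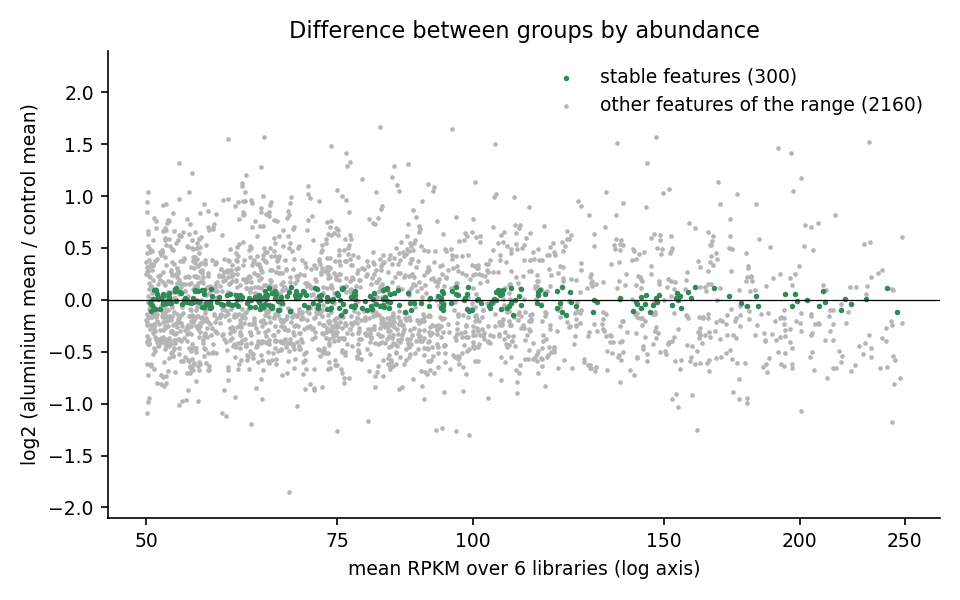
Log2 ratio of the aluminium mean to the control mean against the mean RPKM (log axis) for the 300 stable features and the 2160 other features of 50 to 250 RPKM. The stable features lie between -0.15 and 0.13 at all levels of the range, and the others between -1.85 and 1.66.

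The spread of these features is given beside counting error as a description, since the rule used the same 6 values. Their coefficient of variation over the 6 libraries had a median of 3.65%, where the median from counting error was 1.42%. A chi-square of the 6 read numbers against the library totals, divided by its degrees of freedom, was 5.60 (25th to 75th percentile 3.21 to 9.67) times its value under counting noise, and 8 features were at or under that value. In the other features of the range it was 53.6 (25th to 75th percentile 23.2 to 127), and 0 were at or under it. For TRINITY_DN29985_c0_g3 the coefficient of variation was 0.808%, against 1.59% from counting error. Within the groups, the median coefficient of variation of the 300 was 2.73% in aluminium and 2.34% in control libraries. In the other features of the range it was 4.84% in aluminium and 3.48% in control libraries. The difference between the groups made up 43.9% of the summed variance of log2 RPKM over libraries in the 300 features and 89.5% in the others, 2 values that the choice of members shapes.

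Length was not part of the rule, yet the 300 features were long. Their median length was 1788 (25th to 75th percentile 1177 to 2512) bases, against 1124 (25th to 75th percentile 698 to 1772) bases in the other features of the range. Of the 300, 126 (42%) had 2000 bases or more, against 19.1% of the others, and 11 (3.67%) had under 500, against 14.7%. The longest, TRINITY_DN39002_c5_g1 with 5356 bases, was at 58.1, 57.4 and 56.2 RPKM in aluminium libraries 1, 2 and 3, against 53.7, 54.4 and 52.7 RPKM in control libraries 1, 2 and 3. TRINITY_DN38829_c3_g2, with 5327 bases, was at 112, 118 and 114 RPKM in aluminium libraries 1, 2 and 3, against 109, 107 and 104 RPKM in control libraries 1, 2 and 3. In both, every aluminium library was above every control library. The shortest, TRINITY_DN28882_c0_g4 with 214 bases, was at 110.1, 119 and 107 RPKM in aluminium libraries 1, 2 and 3, against 105, 113 and 108 RPKM in control libraries 1, 2 and 3. TRINITY_DN26105_c0_g1, with 251 bases, was at 99.6, 102 and 93.5 RPKM in aluminium libraries 1, 2 and 3, against 91.1, 99.3 and 93.7 RPKM in control libraries 1, 2 and 3. In these short features the groups overlapped, and the highest value of each was in aluminium library 2.

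Longer features collect more reads at the same RPKM, and the number of reads moved with the share kept. The 300 features had a median of 4985 reads per library, against 3072 in the others. When the 2460 features were put into 5 classes of 492 by reads per library, 3.86, 7.72, 10.6, 18.9 and 19.9% were kept, in order from the fewest to the most reads. By length the shares were 3.85, 6.31, 11.2, 16.2 and 23.4%, from the shortest to the longest class. Within each class of reads, the features longer than its median were kept more often than the shorter ones, 4.90 against 2.83% with the fewest reads and 25.2 against 14.6% with the most. At equal reads a longer feature has a lower RPKM, with medians of 83.8 and 155 RPKM in the class with the most reads, so length and level move together there. With an average of 611 or more reads per library in each of the 300, counting error had a coefficient of variation of at most 4.05%, and its part in which features met the limit was not tested.

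**Figure D4:**
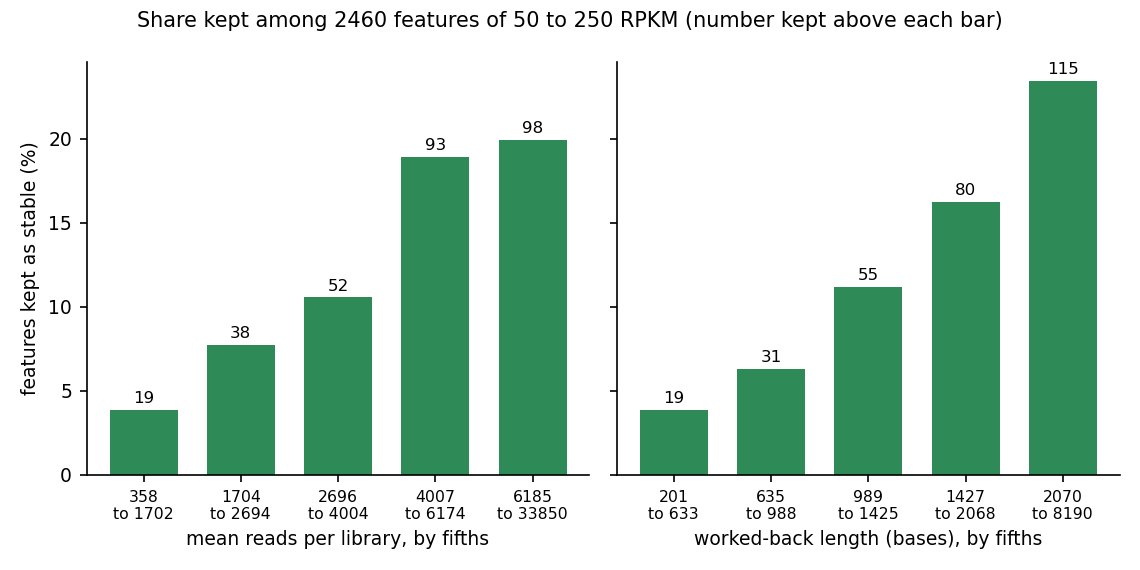
Share (%) of the 2460 features of 50 to 250 RPKM that were kept as stable, in 5 classes of near-equal size by mean reads per library (left) and by worked-back length in bases (right), with the number kept above each bar. The share goes up from 3.86 to 19.9% with reads and from 3.85 to 23.4% with length.

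The chosen abundance range was the one where the limit was met most often. Over all features of a given level, the 1.15 limit was met by 0.693% from 2 to 5 RPKM, 2.49% from 5 to 10 RPKM and 8.89% from 10 to 50 RPKM. It was met by 16.3% from 50 to 100 RPKM and 16.3% from 100 to 250 RPKM. Of the 251 features of 250 RPKM or more, 28 (11.2%) met it.

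The 300 features came from 299 assembly components. In 1 component 2 features were kept, TRINITY_DN36838_c1_g1 of 1333 bases and TRINITY_DN36838_c1_g4 of 589 bases. The first was at 174, 166 and 185 RPKM in aluminium libraries 1, 2 and 3, against 175, 185 and 175 RPKM in control libraries 1, 2 and 3. The second was at 167, 154 and 164 RPKM in aluminium libraries 1, 2 and 3, against 154, 158 and 149 RPKM in control libraries 1, 2 and 3. In both, the groups overlapped. Of the 300, 78 (26%) were the only feature of their component, against 19.5% of the other features of the range, and the median number of features in a component was 2 for the 300 and 3 for the others.

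The other 222 kept features shared their component with 593 sister features that were not kept, most of them weak (median 1.04 RPKM). Sister features can be alleles, splice forms, related genes or fragments of 1 transcript, which the identifiers do not tell apart, and the sources used here do not say how reads that match several of them were assigned. Of the 310 sisters tested, 84 rose and 48 fell in aluminium-treated roots (limma, adjusted p under 0.05), 42.6% in all, where 35.4% of all features tested were called (18.1% higher and 17.3% lower). The 42 sisters between 50 and 250 RPKM had failed the rule or its cap, 2 of them by the cap, so their changes are shaped by the choice. Sisters under 50 RPKM were outside the rule. Of the 267 tested, 70 rose (26.2%) and 25 fell (9.36%), 35.6% in all. Of all features tested under 50 RPKM, 17.4% rose and 16.0% fell, 33.4% in all. Of the 2068 tested sisters under 50 RPKM in components of the other features of the range, 506 rose (24.5%) and 361 fell (17.5%), 41.9% in all. The differences between these shares were not tested. The filter of 1 RPKM in 3 libraries admitted some weak features through 1 group alone. Of the 267 tested sisters of stable features, 8 passed through the aluminium group alone (7 of them called higher) and 0 through the control group alone. Of all 47968 features tested under 50 RPKM, 1043 passed through the aluminium group alone (789 called higher). Another 378 passed through the control group alone (232 called lower). By level, 21.3% of the sisters of stable features were called under 10 RPKM and 66.7% from 10 to 50 RPKM. For sisters of the other features of the range these shares were 29.1 and 63.7%, and among all features tested they were 25.5 and 57.4%.

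A steady feature could stand beside a changed sister. At least 1 sister was tested for 169 of the 300. Rises of at least 2-fold on the log2(RPKM + 0.5) scale were called in 10 sisters and falls of that size in 0, where 4.09% of all features tested changed by that much and 3.09% rose by it. The 10 had a median of 1.53 RPKM and ran from 0.796 to 92.2 RPKM, so not all were faint. Of these, 5 passed the filter only through the aluminium group where they are high, so the number of rises supports nothing. In 27 cases the sister was more abundant than the kept feature.

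The pairs with the largest sister changes were mostly a strong feature beside a faint one. TRINITY_DN39180_c13_g1, of 5309 bases, was at 103, 101 and 104 RPKM in aluminium libraries 1, 2 and 3, against 107, 105 and 103 RPKM in control libraries 1, 2 and 3. Its sister TRINITY_DN39180_c13_g3, of 298 bases, had 18, 19 and 12 reads in aluminium libraries 1, 2 and 3 and 0 reads in each control library. The sister rose by 2.05 on the log2 scale (SE 0.24; limma adjusted p = 0.000393), a size that depends on the pseudocount. Setting the control group at 3 reads in all in place of 0, an assumed value, would put the sister 15.6-fold higher in aluminium libraries. That ratio takes the 49 aluminium reads as exact, so it is not a lower limit. This sister passed the filter only through the aluminium group and was picked for its rise, so its p describes it and supports nothing. With no filter its adjusted p was 0.000329 (limma), from the same 6 values and so no separate support. TRINITY_DN37978_c1_g1, of 2587 bases, was at 109, 108 and 106 RPKM in aluminium libraries 1, 2 and 3, against 105, 105 and 102 RPKM in control libraries 1, 2 and 3. Its sister TRINITY_DN37978_c1_g5, of 251 bases, had 22, 20 and 20 reads in aluminium libraries 1, 2 and 3, against 8, 6 and 0 reads in control libraries 1, 2 and 3. It rose by 1.58 on the log2 scale (SE 0.37; adjusted p = 0.0115, limma), and every aluminium library was above every control library. The size depended on the setting, with 2.49 at a pseudocount of 0.1, 2.73 with voom and 1.11 without control library 3, which held 0 reads (adjusted p from 0.00643 to 0.0409 over these 3). This sister too passed the filter only through the aluminium group and was picked for its rise. With no filter its adjusted p was 0.00955 (limma), again from the same values and no separate support.

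Of the falls, the largest in log2 was again in a faint sister. TRINITY_DN19538_c0_g3, of 748 bases, was at 59.1, 56.8 and 63.1 RPKM in aluminium libraries 1, 2 and 3, against 62.7, 59.8 and 61.4 RPKM in control libraries 1, 2 and 3. Its sister TRINITY_DN19538_c0_g4, of 308 bases, was at 0.677, 1.29 and 1.69 RPKM in aluminium libraries 1, 2 and 3, against 2.47, 2.15 and 3.09 RPKM in control libraries 1, 2 and 3, from 7 to 31 reads per library. This sister fell by 0.87 on the log2 scale (SE 0.25, limma adjusted p = 0.0276), a call that was lost without aluminium library 1, control library 1 or control library 3 (adjusted p up to 0.0909). The next fall rested on more reads. TRINITY_DN27965_c0_g1, of 783 bases, was at 124, 123 and 124 RPKM in aluminium libraries 1, 2 and 3, against 133, 135 and 135 RPKM in control libraries 1, 2 and 3. Its sister TRINITY_DN27965_c0_g2, of 653 bases, was at 39.2, 44.7 and 40.5 RPKM in aluminium libraries 1, 2 and 3, against 73.4, 69.7 and 59.9 RPKM in control libraries 1, 2 and 3, from 860 to 1577 reads per library. The sister fell by 0.70 on the log2 scale (SE 0.08, limma adjusted p = 0.0004), while its kept partner had a ratio of means of 0.921, lower in every aluminium library too.

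**Figure D5:**
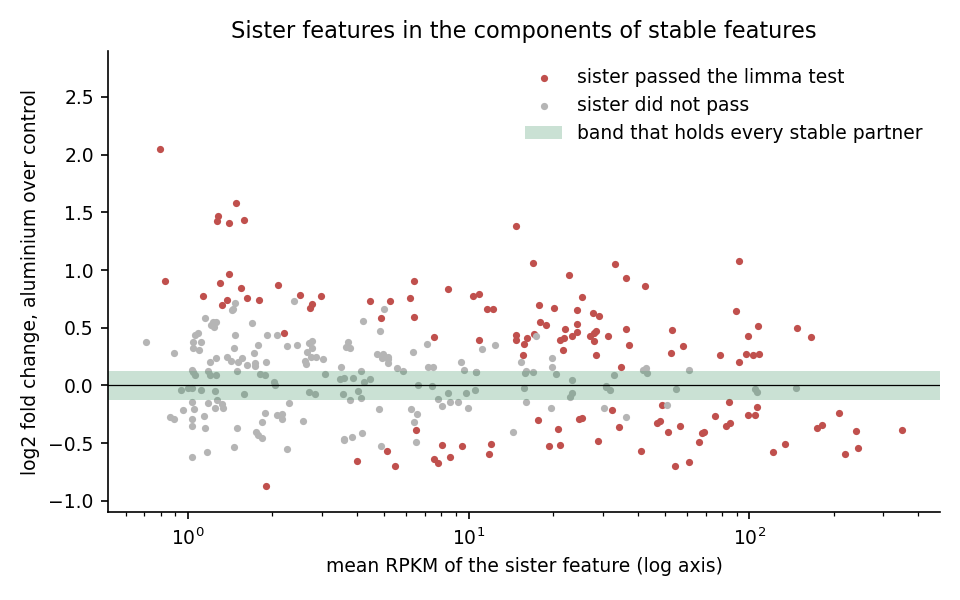
Log2 fold change of aluminium over control (limma, log2(RPKM + 0.5) scale) against mean RPKM (log axis) for the 310 tested sisters of stable features, with sisters that passed the test and those that did not in different colours and a green band that holds the kept partners. Sisters spread from -0.87 to 2.05, the highest being the sister at 0 in the control group, whose fitted value depends on the pseudocount, and 132 of them passed the test.

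Which features count as stable depended on how the libraries were put on 1 scale. RPKM as deposited divides by the library total. With each library rescaled to the same median over the features that passed the abundance filter, 311 features met the rule and 218 of the 300 were among them. With scaling factors from a trimmed mean of log ratios (TMM), 315 met it, 228 of the 300 among them. With each library rescaled to the same RPKM sum, 363 met it, 266 of the 300 among them, and with quantile normalization 418 met it, 271 of the 300 among them. The median ratio of aluminium to control means over the 300 was 0.970 under the median scale and 1.02 under quantile normalization, so that the direction of the typical difference turned with the scale.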

How the data were processed

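RNA was extracted from roots with TRIzol and sequenced after standard Illumina library preparation, per the labels' protocols. The submitters' processing notes name Bowtie2 2.2.3 without its role. The assembler and the counting tool were not given in the sources used here. The authors deposited 1 table of RPKM values, per the file name, holding 108674 features by 6 libraries.

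Library totals, feature lengths and whole reads were worked back from the digits of the RPKM values. All features (100.0%) came out as whole reads within 1e-06 reads. Where the recovered length was under 201 bases, it was raised to its first multiple of at least 201. On Poisson reads simulated from these recovered reads, lengths and totals, 99.4% of 108635 features were recovered exactly. A true length that is a multiple of the recovered one would not show in that simulation. Counting error from these reads takes them as independent molecules, which is not known.

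Features that reached 1 RPKM in 3 or more libraries were compared on log2(RPKM + 0.5), a scale that understates changes of weak features. The test was limma 3.58.1 in R 4.3.3 (two-sided, eBayes with an intensity trend, threshold 0.05 after Benjamini-Hochberg adjustment). It was also run on simulated reads with far fewer changed features than were called here. That run does not measure its error in these data. Other steps used Python 3.11.15. No count model was the main test, because the table holds RPKM. The named features are the 4 with the lowest ratio, the extremes in level, in length and in the ratio of group means, those next to the limit, the component with 2 kept features, and the pairs with the largest sister changes. The rule, the lists and these choices were made with earlier results of these data known. Gene lists of pathways were not used here, since no identifier can be matched. Alternatives changed the pseudocount, the filter, the normalization, the test, the ratio limit and the libraries used.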

Additional observations from a re-analysis of the deposited data

How the results depend on the processing

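Over all features, 17939 were called by limma, 13712 to 18964 under the other settings with 6 libraries and 13449 to 16692 with 1 library left out. Called sisters numbered 132, 116 to 133 under the other settings and 105 to 132 with 1 library left out. The number tested moved with the filter, so the share called did too. Of the sisters, 132 of 310 were called in the main fit, 116 of 168 with a filter of 5 RPKM and 123 of 593 without a filter. Over all features these were 17939 of 50679, 13712 of 24006 and 16253 of 108674. Among the 300 stable features, whose differences are small by choice, 13 were called. The count was 5 without the filter, 24 with a filter of 5 RPKM, 28 with quantile normalization (25 higher and 3 lower in aluminium), 33 with voom on worked-back reads (20 higher and 13 lower) and 1 to 18 with 1 library left out, and the cause was not tested. Same-numbered libraries did not deviate together (correlations of -0.15, -0.11 and -0.02), so the number is taken as a name. With the replicate block, limma called 0 of the 300 (12 at an unadjusted p under 0.05), 121 sisters and 14753 features in all. The rule was met by 402 features, by 147 with a limit of 1.1 and by 662 with a limit of 1.2, by construction of the limit, and by 450 to 537 with 1 library left out, as a ratio over fewer libraries is never higher. The 4 named sister changes kept their direction in every setting that tested them. For TRINITY_DN19538_c0_g4, whose adjusted p ran from 0.0165 to 0.0909 over 12 alternatives (limma), 4 lost the call, voom with an adjusted p of 0.0529 among them. TRINITY_DN27965_c0_g2 kept the call in each of 13 alternatives. The named rises passed the filter only through the aluminium group and could not be tested with an aluminium library left out or with the filter of 5 RPKM, so the 9 alternatives that did test each say little about their stability. The labels give no batch or day, so handling and treatment cannot be told apart. Depth was no less than 611 reads per library on average in any of the 300, and the median standard error of their log2 change was 0.044 (limma).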
